A study of Mus musculus with 4 samples.

Results

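Cultured mouse muscle stem cells that carried a high Myog transcript level together with Mki67 and Top2a were examined here. Kept cells were barcodes present in all 4 files with a mean of at least 1000 genes and under 10% mitochondrial UMIs per file. A cell was counted as cycling and Myog-high when it reached 1500 CPM of Myog and 150 CPM of Mki67 and Top2a together, with at least 1000 CPM of the nuclear RNA Malat1. CPM is the share of a cell's unique molecular identifiers (UMIs, tags that count captured RNA molecules) that belong to a gene, scaled to a common total. The rule found 332 of 5481 kept cells, out of 5944 barcodes present in all files. Of the 332 cells, 198 had a mean total under 15000 UMIs per file and 134 were deeper, and the deeper cells, which may be pairs of cells in 1 droplet, are given apart. Unless depth is stated, all values are of the 198 cells.

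Every cell came from 1 group, MyoD-KI muscle stem cells taken from skeletal muscle, grown for 5 days in growth medium and sorted by flow cytometry for a high MyoD-tdTomato signal. MyoD is the protein of Myod1, and tdTomato is a red fluorescent protein, so the gate itself selected for activity of the Myod1 locus. The labels give neither the number or age of the animals nor any difference in treatment between the replicates. The 4 replicates hold the same cells, since every pair of files shared 99.9% of the barcodes of the smaller file. Over pairs of files, the mean correlation across genes of 1 barcode with itself was 0.796 to 0.804, and with different barcodes it was 0.673 to 0.677. They therefore measure the same cells and count as 1 sample. Whether they are separate libraries or repeat sequencing of 1 library is not given in the sources used here, so UMIs summed over the files may count a molecule more than once. Spread over the files is technical and does not measure variation between animals or cultures, and no test was run. Total UMIs were 62627341 to 68898900 per file. Intervals are 95% intervals at the mean count of 1 file and cover counting error only.

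Myog encodes myogenin, a basic helix-loop-helix transcription factor that switches on with commitment of myoblasts to differentiation. Commitment in muscle is coupled to withdrawal from the cell cycle, in which the inhibitor p21 (Cdkn1a) and the retinoblastoma protein (Rb1) take part, and the withdrawn myocytes then fuse and build sarcomeres. Mki67 marks dividing cells and Top2a encodes the topoisomerase that untangles replicated chromosomes, with highest levels in G2 and mitosis. The cells chosen here thus hold transcripts of 2 programmes that are usually described as successive. Whether both programmes run in such a cell was not tested.

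The rule combines genes with different promoters, and the 250 bases upstream of each start are shown because they carry the sequence elements of those 2 programmes. Sequences are from RefSeq on GRCm38.p6, 5′ to 3′ on the strand of the gene. The files' own build is named in the submitters' notes as both mm10 and GRCm39, so these positions belong to the reference only. Capitals in Myog mark CANNTG, the E-box bound by MyoD and related factors. Capitals in Mki67 and Top2a mark TTTGAA, the core of the cell cycle homology region, and CCAAT, the site of NF-Y. Both strands were searched, so TTCAAA and ATTGG in capitals are the same elements on the opposite strand. The Myog window lies at chr1:134289754-134290003 on the plus strand, Mki67 at chr7:135716380-135716629 and Top2a at chr11:99024190-99024439, both on the minus strand.
Myog: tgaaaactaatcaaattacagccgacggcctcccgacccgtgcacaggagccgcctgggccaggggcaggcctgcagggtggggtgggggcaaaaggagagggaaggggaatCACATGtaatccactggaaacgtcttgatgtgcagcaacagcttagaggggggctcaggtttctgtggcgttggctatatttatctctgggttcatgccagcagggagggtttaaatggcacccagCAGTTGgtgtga
Mki67: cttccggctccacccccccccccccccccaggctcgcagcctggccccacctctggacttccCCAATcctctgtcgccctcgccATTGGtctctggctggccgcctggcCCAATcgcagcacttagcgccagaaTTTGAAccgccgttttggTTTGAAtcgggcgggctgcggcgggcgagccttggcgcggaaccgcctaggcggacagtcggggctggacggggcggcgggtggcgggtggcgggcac
Top2a: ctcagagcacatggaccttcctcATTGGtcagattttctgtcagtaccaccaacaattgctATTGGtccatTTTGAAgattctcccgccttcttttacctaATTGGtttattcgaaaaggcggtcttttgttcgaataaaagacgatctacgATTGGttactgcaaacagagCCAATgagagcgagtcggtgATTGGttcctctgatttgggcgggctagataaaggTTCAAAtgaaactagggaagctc
The Myog window held 2 matches to CANNTG, a pattern present in 66.2% of 32851 RefSeq windows of this length. Mki67 held 2 matches to TTTGAA and 3 to CCAAT, and Top2a held 2 and 6. TTTGAA occurred in 16.0% of all windows and CCAAT in 33.8%. Myog held neither TTTGAA nor CCAAT. The E-box pattern was not limited to Myog: the Top2a window held 3 matches to it, which are not marked above, and Mki67 held 0. These are matches of letters and not measured binding.

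The values that chose the cells are given first, as a description. Myog ranged from 1516 to 6769 CPM over the 198 cells, with a median of 2712. Mki67 and Top2a together ranged from 151.5 to 4553 CPM, with a median of 367. The cells were spread widely between these values, with 80 cells (40.4%) between 150 and 300 CPM and 60 cells (30.3%) at 1000 CPM or more. Cells between 150 and 300 CPM rested on a median of 8 UMIs of both genes over the 4 files, and those at 1000 CPM or more on 86.5 UMIs. Just inside the limit, 32 Myog-high cells had 150 to 200 CPM, and just outside it, 50 had 100 to 150 CPM. On the Myog axis, 16 cycling cells lay at 1500 to 1700 CPM and 19 at 1300 to 1500. When the cells were chosen in replicates 1 and 2 alone, 199 met the rule, and 154 of them (77.4%) met both thresholds again in replicates 3 and 4. These are the genes of the rule in the same cells, and the files may count the same molecules. The share therefore describes the files and is no independent support for the group.

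**Figure D1:**
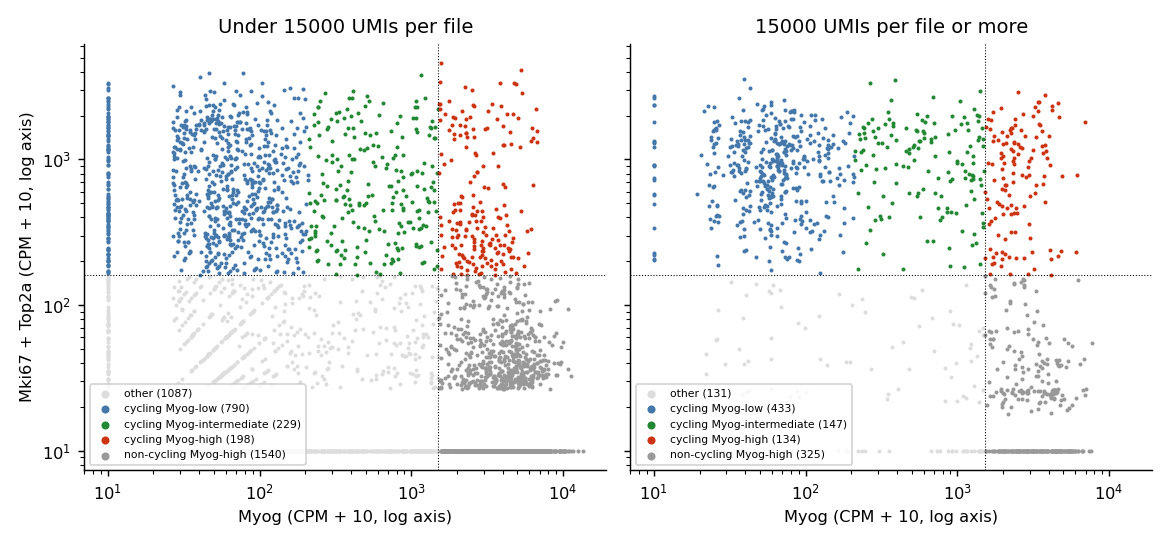
Myog (x) against the sum of Mki67 and Top2a (y), CPM plus 10 on log axes, for single cells under 15000 UMIs per file (left) and at or above it (right); dotted lines are the thresholds and legends give cell numbers. The 198 and 134 cycling Myog-high cells (red) fill the upper right corner of each panel.

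Other groups of cells under the same depth limit served for comparison. Cycling Myog-low cells (790 cells) passed the Mki67 and Top2a threshold with under 200 CPM of Myog. Cycling Myog-intermediate cells (229 cells) had 200 to 1500 CPM of Myog. Non-cycling Myog-high cells (1540 cells) had 1500 CPM of Myog or more and under 150 CPM of Mki67 and Top2a. The cycling Myog-high cells made up 16.3% of cycling cells under the depth limit (interval 14.2 to 18.5%) and 11.4% of Myog-high cells (9.94 to 13.0%). The median depth was 9928 UMIs per file in the cycling Myog-high cells, against 10728 in Myog-low, 10873 in Myog-intermediate and 10384 in non-cycling Myog-high cells. A ratio below is the log2 ratio of CPM plus 1, and a gene is counted as past 2-fold when its mean ratio exceeded 1 in size with the same sign in all 4 files. Genes needed 50 UMIs over both groups in the mean file. A gene nearly absent from 1 group could pass through the other group alone, and could then only count as higher there.

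The cycling Myog-high cells were mostly called G2/M by their transcripts, as were the other cycling groups. Phases were called on cells thinned to 5000 UMIs per file, from replication and mitosis genes without Mki67 and Top2a, which left 189 of the 198 cells. G2/M was called in 81.2% of them (74.9 to 86.5%), with 76.2%, 84.1%, 84.1% and 80.4% in replicates 1 to 4. The G2/M share was 57.9% in cycling Myog-low and 66.6% in Myog-intermediate cells. All cycling groups were chosen on Mki67 and Top2a, and Top2a is highest in G2 and mitosis, so the rule itself favours G2/M cells. S phase was called in 7.14% of the Myog-high cells (3.91 to 11.8%), with 9.52% in replicate 1 and 6.35% in each other replicate. Among cycling Myog-low cells the S phase share was 37.4% (33.9 to 40.9%), and among Myog-intermediate cells it was 29.2% (23.3 to 35.7%). These intervals count cells of 1 sample and do not measure variation between cultures. The level of the S phase share depends on the call: by summed list levels it was 17.5%, 40.2% and 53.2% in the Myog-high, Myog-intermediate and Myog-low groups. The order of the groups was the same by both calls. Cells called G1 made up 11.6% of the Myog-high group (7.44 to 17.1%), against 4.70% of Myog-low cells (3.31 to 6.46%), and 97.1% of the non-cycling Myog-high cells.

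**Figure D2:**
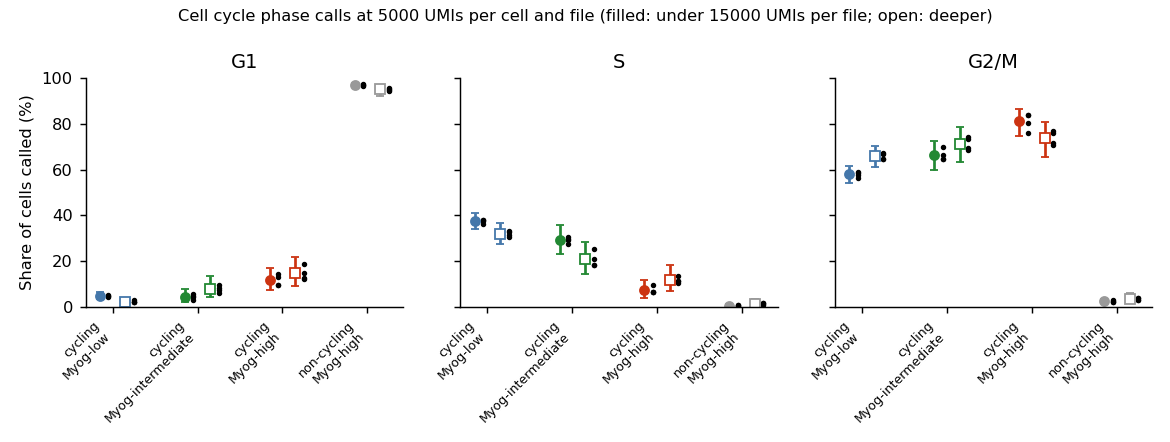
Share of cells (%) called G1, S and G2/M in 4 groups at 5000 UMIs per cell and file, with 95% binomial intervals; filled markers are cells under 15000 UMIs per file, open markers deeper cells, and small black points the 4 files. The S phase share of cycling Myog-high cells is 7.14%, against 37.4% in cycling Myog-low cells.

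Replication genes were low relative to the other cycling cells. Of 41 replication and S phase genes tested, 16 were more than 2-fold lower than in cycling Myog-low cells and 0 were higher, with a median ratio of -0.87. Over all 9930 genes tested, 10.8% were lower and 4.62% higher, with a median of -0.13. Cdc6 and Cdt1, which license replication origins, were at 6.60 and 11.9 CPM in the Myog-high cells, against 30.9 and 53.3 CPM in Myog-low cells. Hells, a chromatin remodeller of replicating cells, was at 29.6, 27.9, 28.6 and 26.3 CPM in the 4 files, against 117 CPM on average in Myog-low cells. The ratio of Hells was -2.02 (-2.43 to -1.64). Mcm5, a subunit of the replicative helicase, was at 37.8 against 82.1 CPM. Not every gene of the list was low: Rrm2, a subunit of ribonucleotide reductase, was at 529 against 601 CPM, and Rad51ap1, a recombination factor, was at 132 against 104 CPM.

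Mitosis genes were at the level of other cycling cells or slightly above it. Of 46 tested, 0 were more than 2-fold higher than in cycling Myog-low cells and 1, the spindle gene Psrc1 (7.02 against 25.6 CPM), was lower, with a median ratio of 0.21. Over all genes, 4.62% were higher and 10.8% lower in this comparison. Ccnb1, which encodes the mitotic cyclin B1, was at 192, 195, 210 and 199 CPM in the 4 files, against 141 CPM in Myog-low and 18.5 CPM in non-cycling Myog-high cells. Ube2c, the ubiquitin-conjugating enzyme of the anaphase-promoting complex, was at 588 CPM, against 356 and 53.5 CPM. Cdca8, a subunit of the chromosomal passenger complex, was at 323 CPM, against 187 and 17.0 CPM. The kinase gene Plk1 was at 90.8 CPM, against 70.7 and 1.95 CPM. Summed over the list, mitosis genes reached 8328 CPM in Myog-high, 7513 in Myog-intermediate, 7080 in Myog-low and 850 CPM in non-cycling Myog-high cells. Cells called G2/M make up different shares of these groups, so the comparison was repeated in cells called G2/M in at least 3 files (153 Myog-high and 415 Myog-low cells). There the median ratio was -0.06 for mitosis genes and -0.46 for replication genes, of which 9 were lower and 1 higher among 40 tested. Of all genes tested in these cells, 9.99% were lower and 4.68% higher. The G2/M call itself used the mitosis and replication lists, so both list medians partly follow from the choice of cells.

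Cdkn1a, which encodes the inhibitor p21, stood between the cycling Myog-low and the non-cycling Myog-high cells, and the other inhibitors went both ways. Cdkn1a was at 1073, 1126, 1100 and 1097 CPM in the 4 files. It was at 222 to 245 CPM over the files in cycling Myog-low cells and at 2473 to 2488 CPM in non-cycling Myog-high cells. The ratio was 2.22 (2.13 to 2.31) to the Myog-low cells and -1.17 (-1.24 to -1.11) to the non-cycling cells. At 5000 UMIs, 96.0% of the cells held a Cdkn1a UMI (92.2 to 98.3%), against 57.6% of Myog-low, 79.3% of Myog-intermediate and 98.9% of non-cycling Myog-high cells. Without thinning these shares were 98.5%, 75.3%, 91.8% and 99.4%. Among single cells, Cdkn1a summed over the 4 files, ranged from 94.2 to 3615 CPM with a median of 980. The shares above are means over single files, and the part of free RNA in them was not measured. In cells called G2/M the level was 1130 CPM, against 264 CPM in G2/M cells with low Myog.

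Of the 15 inhibitor and pocket protein genes tested against Myog-low cells, 5 were past 2-fold higher and 2 lower, where 4.62% of all genes were higher and 10.8% lower. The share of lower genes was thus near that of all genes. Against the non-cycling Myog-high cells, 2 of 14 were higher and 3 lower, with a median ratio of -0.10. Over all genes in that comparison, 7.43% were higher and 4.93% lower, with a median of 0.14. The count of 2 higher genes is near that share. Cdkn1c, which encodes the inhibitor p57, was at 85.6 CPM, against 7.90 CPM in Myog-low, 7.60 in Myog-intermediate and 200 CPM in non-cycling Myog-high cells. It was uneven among the cells: the median cell had 0 and the highest 2997 CPM, and 15.3% held a UMI at 5000 UMIs (10.5 to 21.3%). Non-cycling Myog-high cells were uneven as well, with a median of 0 and a highest value of 7041 CPM. Rb1 was at 229, 221, 235 and 217 CPM in the 4 files, against a mean of 45.7 CPM in Myog-low and 252 CPM in non-cycling Myog-high cells. The ratio of Rb1 to the non-cycling cells was -0.16 (-0.30 to -0.02). Gadd45a, a stress-induced growth arrest gene, was at 176 against 21.9 and 271 CPM. Rbl1, which encodes the pocket protein p107 and is itself induced in cycling cells, was lower than in Myog-low cells at 12.8 against 34.8 CPM, and was at 1.33 CPM in the non-cycling cells. Cdkn2d, which encodes p19 of the Ink4 family, followed the cycle: it was at 138 CPM, against 93.3 CPM in Myog-low and 16.6 CPM in non-cycling Myog-high cells. Of 16 other p53 targets tested, 0 were more than 2-fold higher than in Myog-low cells and 6 were lower, among them Phlda3 at 119 against 313 CPM.

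Cyclins and kinases of G1 were low. Of 9 tested against Myog-low cells, 6 were past 2-fold lower and 0 higher, with a median ratio of -1.44, where 10.8% of all genes were lower and 4.62% higher. In cells called G2/M, 4 of 9 were lower and 1 higher, with a median of -0.91. Ccnd1, which encodes cyclin D1, was at 40.9, 44.5, 39.6 and 35.5 CPM in the 4 files, against 227 to 241 CPM in Myog-low cells and 22.1 to 24.6 CPM in non-cycling Myog-high cells. The ratio to Myog-low cells was -2.52 (-2.85 to -2.19). Cdk6, its partner kinase, was at 6.60 against 51.9 CPM, and Ccne2, cyclin E2 of the entry into S phase, at 22.2 against 59.3 CPM. Ccnd3, the cyclin D that persists in differentiated muscle, was near the other groups, with 316 CPM against 283 in Myog-low and 368 CPM in non-cycling Myog-high cells. In G2/M cells alone Ccnd1 was still lower (ratio -2.69), whereas the interval of the Ccne2 ratio of -0.29 ran from -0.98 to 0.47.

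**Figure D3:**
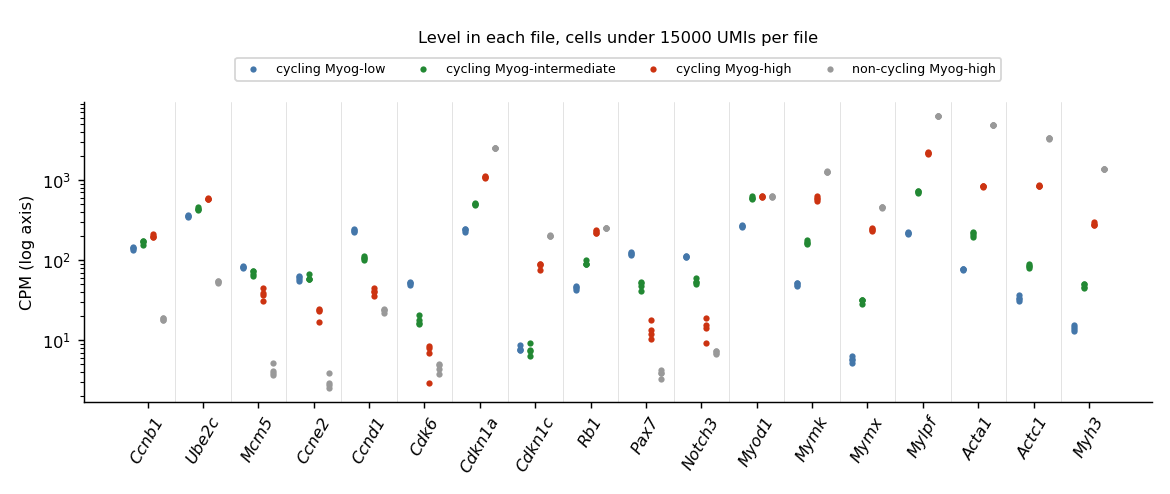
CPM (log axis) of 18 genes in each of the 4 files for cycling Myog-low, cycling Myog-intermediate, cycling Myog-high and non-cycling Myog-high cells under 15000 UMIs per file. Cdkn1a and Acta1 of the cycling Myog-high cells lie between the Myog-low and the non-cycling cells, at 1099 and 834 CPM.

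Stem cell and progenitor transcripts were low relative to the other cycling cells. Of 20 tested, 12 were past 2-fold lower than in cycling Myog-low cells, 1 was higher, and the median ratio was -1.45. Over all genes, 10.8% were lower and 4.62% higher in this comparison. Pax7, the transcription factor of muscle stem cells, was at 13.3, 10.3, 18 and 11.8 CPM in the 4 files, against 117 to 125 CPM in Myog-low and 3.33 to 4.28 CPM in non-cycling Myog-high cells. At 5000 UMIs, 6.08% of the cells held a Pax7 UMI (3.13 to 10.5%), against 41.8% in Myog-low and 1.82% in non-cycling Myog-high cells. Without thinning the shares were 11.5%, 63.6% and 3.6%. The receptor gene Notch3 and its target Hes1 were at 14.4 and 12.3 CPM, against 111 and 104 CPM in Myog-low cells. Id3, an inhibitor of MyoD family dimers, was at 564 against 1402 CPM, and the secreted proteins Spp1 and Mgp were at 60.8 and 69.8 against 527 and 802 CPM. The 1 higher gene was Hes6, which promotes myogenic differentiation, at 839 against 336 CPM. Against the non-cycling Myog-high cells, 2 of 17 genes tested, Pax7 and the receptor gene Notch2, were past 2-fold higher and 0 lower, with a median ratio of 0.49. Over all genes, 7.43% were higher and 4.93% lower in that comparison, so the count of 2 of 17 is near the share of all genes. Hes6 was at 1326 CPM in the non-cycling Myog-high cells.

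Among regulators of differentiation, Myod1 was at the level of the non-cycling cells and Mef2c far below it. Myod1 was at 624, 620, 606 and 631 CPM in the 4 files, against 621 CPM in non-cycling Myog-high, 598 in Myog-intermediate and 266 CPM in Myog-low cells. The interval of its ratio to the non-cycling cells ran from -0.09 to 0.08. Mef2c, a late partner of myogenin, was at 112 CPM, against 20.2 CPM in Myog-low and 915 CPM in non-cycling Myog-high cells, a ratio of -3.02 (-3.22 to -2.83) to the latter. Rbm24, an RNA-binding protein of muscle splicing, was at 710 CPM, above the 118 CPM of Myog-low and the 571 CPM of non-cycling cells. Of 14 regulators tested, 5 were past 2-fold higher than in Myog-low cells and 1 (Eya1) was lower. Over all genes, 4.62% were higher and 10.8% lower in this comparison.

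Fusion and early differentiation genes stood about midway, and sarcomere genes lower. Mymk (Myomaker), which drives fusion, was at 625, 587, 594 and 550 CPM in the 4 files, against 47.4 to 52.1 CPM in Myog-low and 1272 CPM in non-cycling Myog-high cells. Its partner Mymx was at 240 CPM, against 5.81 and 460 CPM, with a ratio to Myog-low cells of 5.15 (4.75 to 5.57), the highest under the naming rule, which leaves out Myog. Of 22 early differentiation genes tested, 11 were past 2-fold higher than in Myog-low cells and 1 (Igfbp5) was lower. Of 36 sarcomere genes listed, 27 reached the count minimum and were tested. Of these 27, 26 were higher, with a median ratio of 3.11. Over all genes, 4.62% were higher and 10.8% lower in this comparison. The cells were chosen on Myog, and a gene could reach the minimum through the Myog-high cells alone. Acta1, skeletal actin, was at 844, 811, 830 and 849 CPM in the 4 files, against 74.9 to 78.5 CPM in Myog-low cells and 4859 to 4917 CPM in non-cycling Myog-high cells. Its ratios were 3.42 (3.29 to 3.55) and -2.55 (-2.62 to -2.48). Single cells differed widely in Acta1, with a lower quartile of 94.6, a median of 296 and an upper quartile of 1202 CPM. Embryonic myosin Myh3 was at 283 CPM, against 14.2 and 1374 CPM, and the light chain Mylpf at 2158, against 218 and 6297 CPM. The giant sarcomere protein gene Ttn was at 2425, against 442 and 5706 CPM.

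Against the non-cycling Myog-high cells the cell cycle genes led on one side and late muscle genes on the other. Of 10246 genes tested, 761 (7.43%) were past 2-fold higher and 505 (4.93%) lower, with a median ratio of 0.14. This split depends on scaling, since with trimmed mean factors 521 were higher and 720 lower, and with median-ratio factors 528 and 706. Those factors moved the median ratio to -0.10 and -0.09. Of the mitosis list 44 of 44 genes tested were higher (median 4.25), and of the replication list 32 of 33 (median 2.57), where the rule had chosen on cycling. Of 35 sarcomere genes tested, 28 were lower and 0 higher, with a median of -1.92. The lowest ratios belonged to Fabp3, a fatty acid binding protein (2.53 against 56.0 CPM), the Z-disc genes Myoz2 (1.28 against 31.9 CPM) and Tcap (12.2 against 139 CPM), the slow myosin Myh7 (3.55 against 51.5 CPM) and the calcium store protein Casq2 (12.8 against 136 CPM). The muscle creatine kinase Ckm was at 9.06 against 96.9 CPM. The non-cycling cells reached higher Myog, with 4374 against 3038 CPM. Among cells with Myog of 1500 to 3000 CPM only (117 cycling and 368 non-cycling cells), 28 of 35 sarcomere genes were still lower, with a median of -2.20. The ratio of Cdkn1a was -0.97, and of 13 inhibitor genes tested 2 were past 2-fold higher and 0 lower. Over all genes tested at this Myog level, 4.29% were lower and 5.11% higher.

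Against the Myog-intermediate cells, the nearest group below the threshold, 147 of 7697 genes (1.91%) were past 2-fold higher and 199 (2.59%) lower. Of 27 sarcomere genes tested 19 were higher (median 1.42), and of 40 replication genes 10 were lower (median -0.70), against a median of -0.06 over all genes. In cells called G2/M, a call that itself used these genes, 2 of 32 replication genes were lower (median -0.25), with 1.76% of all genes lower. In the deeper cells 0 of 40 were lower (median -0.47), with 0.298% of all genes lower. The highest ratios were those of Frmd4b, Cdkn1c, Ablim3, cardiac actin Actc1 and Smim5, from 3.5 to 2.99. Actc1 was at 850 CPM, against 84.9 CPM, and Cdkn1c at 85.6 against 7.60 CPM. Single cells differed widely in Actc1, with a median of 167 and an upper quartile of 1097 CPM. In the Myog-intermediate cells its median was 34.6 and its upper quartile 61.6 CPM. The lowest ratios were those of the growth factor Csf1, the receptor Nrp2, the Notch pathway genes Hes1 and Notch3, and Klf12, from -2.51 to -1.86. Cdkn1a had a ratio of 1.13 (1.02 to 1.23) and Rb1 of 1.29 (1.05 to 1.52).

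Binning all cycling cells by Myog places these differences along a range of 7 bins. The S phase share was 34.5% and 40.6% in the bins below 50 and at 50 to 200 CPM, 29.0% and 29.4% at 200 to 500 and 500 to 1500 CPM, and 8.78%, 9.25% and 0.595% in the 3 bins from 1500 CPM, which hold 76, 76 and 46 cells. Cdkn1a was at 221 CPM in the lowest bin, 642 CPM at 500 to 1500 CPM of Myog and 1563 CPM at 4000 CPM or more. Ccnd1 was at 229 CPM in the lowest and 12.5 CPM in the highest bin, and Pax7 at 131 and 2.25 CPM. Cells of the cycling kind made up 50.8% of the lowest bin, 24.8% at 1500 to 2500 CPM and 5.09% at 4000 CPM or more. At 1500 to 2500 CPM of Myog, Acta1 was at 486 CPM in cycling and 4051 CPM in non-cycling cells, and Cdkn1a at 821 and 1710 CPM. Ccnd1 there was at 60.4 and 53.9 CPM.

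**Figure D4:**
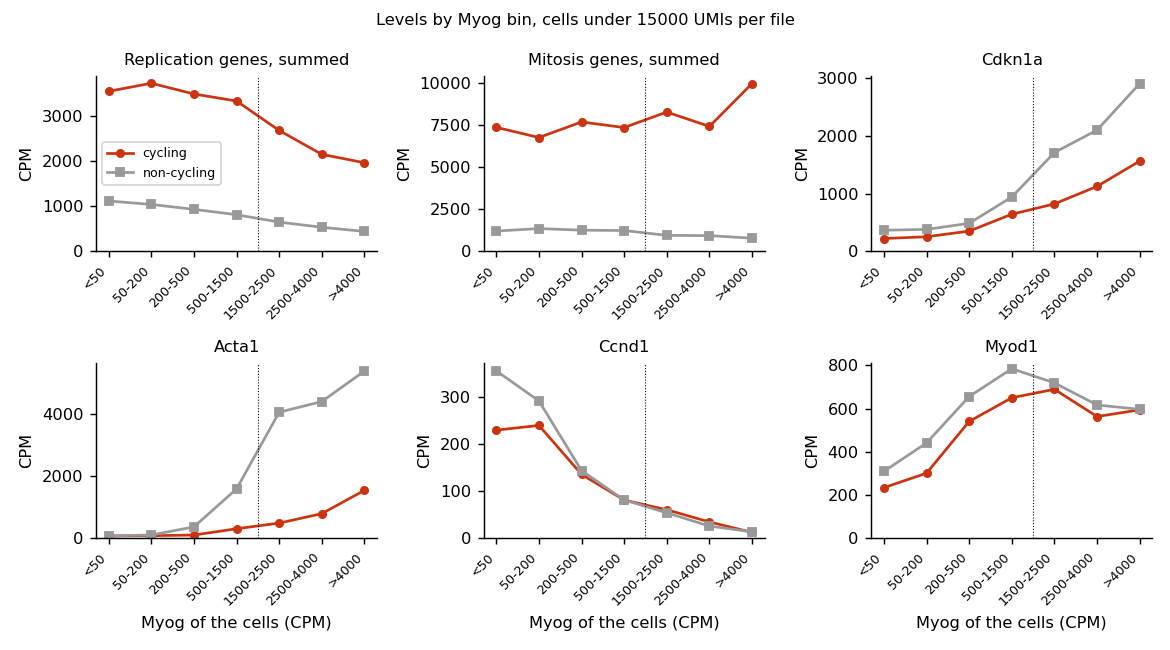
Levels (CPM) of summed replication genes, summed mitosis genes, Cdkn1a, Acta1, Ccnd1 and Myod1 by Myog bin, in cycling (red) and non-cycling (grey) cells under 15000 UMIs per file; the dotted line is the Myog threshold. At 1500 to 2500 CPM of Myog, Acta1 is 486 CPM in cycling and 4051 CPM in non-cycling cells.

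A small set of genes lay outside the range of both comparison groups. Of 9348 genes tested, 71 (0.76%) were past 1.5-fold above the higher of the cycling Myog-low and the non-cycling Myog-high level, and 124 (1.33%) past 1.5-fold below the lower. The homeobox gene Prox1 was at 122 CPM, against 27.1 and 61.6 CPM. Fam122b, a regulator of protein phosphatase 2A, was at 71.1 CPM, against 22.5 and 24.5 CPM. Plac1 was at 69.9 CPM, against 10.7 and 34.8 CPM, and the atypical cyclin Ccng2 at 32.6 CPM, against 16.2 and 10.5 CPM. In the deeper cells Prox1, Fam122b, Plac1 and Ccng2 were again above both groups of like depth, by 0.92, 1.13, 1.02 and 1.00 on the log2 scale. These 4 are the largest of the 10 genes farthest above both groups, and the other genes lay between 0.30 (Mvb12b) and 0.80 (Nckap5l) above them. Mvb12b, H2afy2 (0.34) and Abhd8 (0.50) were then under 1.5-fold. With only the cycling cells called G2/M, in the shallower cells, Prox1, Fam122b and Plac1 were above both groups by 1.01, 1.33 and 1.11. Ccng2 was then above them by 0.61, near the 1.5-fold limit. Below both groups were Kif26b, with 20.0 CPM against 83.1 and 90.0 CPM, Pold4, with 28.9 against 116 and 132 CPM, and the immediate early gene Egr1, with 17.4 against 42.5 and 50.5 CPM. In the deeper cells these 3 genes were above the lower of the groups, by 0.77, 0.19 and 0.41.

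The 134 deeper cells had a median of 21309 UMIs per file. Deep cells made up 40.4% of all cycling Myog-high cells (35.0 to 45.9%) and 39.1% of cycling Myog-intermediate cells. They made up 35.4% of cycling Myog-low and 17.4% of non-cycling Myog-high cells. The highest 5% of doublet scores over all kept cells took in 78 of the 134 deep cells (58.2%) and 7 of the 198 others (3.54%). In cycling Myog-intermediate cells the scores took in 34.7% of deep and 2.62% of other cells, and in cycling Myog-low cells 5.54% and 0.127%. In non-cycling Myog-high cells they took in 17.2% and 0.779%. Levels also differed with depth. To compare them, the level of the cycling Myog-high cells was expressed as a position between cycling Myog-low (0%) and non-cycling Myog-high cells (100%) of the same depth. Pax7 lay at 91.9% in the shallower and 67.4% in the deeper cells, where it was at 42.9 CPM, and Mgp lay at 99.8% and 55.3% and Notch3 at 92.9% and 64.9%. Acta1 lay at 15.8% and 33.2%, Mef2c at 10.2% and 35.8%, and Cdkn1a at 38.5% and 57.1%. Over lists, the sarcomere genes lay at 30.6% and 42.2%, the inhibitors at 50.8% and 67.3%, and the stem and progenitor genes at 106.9% and 72.6%. Hes6, which was highest in the non-cycling cells, is the largest part of their sum in that group. The summed mitosis genes lay at -20.0% in the shallower cells, above the Myog-low level, and at 12% in the deeper ones. The part that droplets with more than 1 cell have in either set was not tested.

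**Figure D5:**
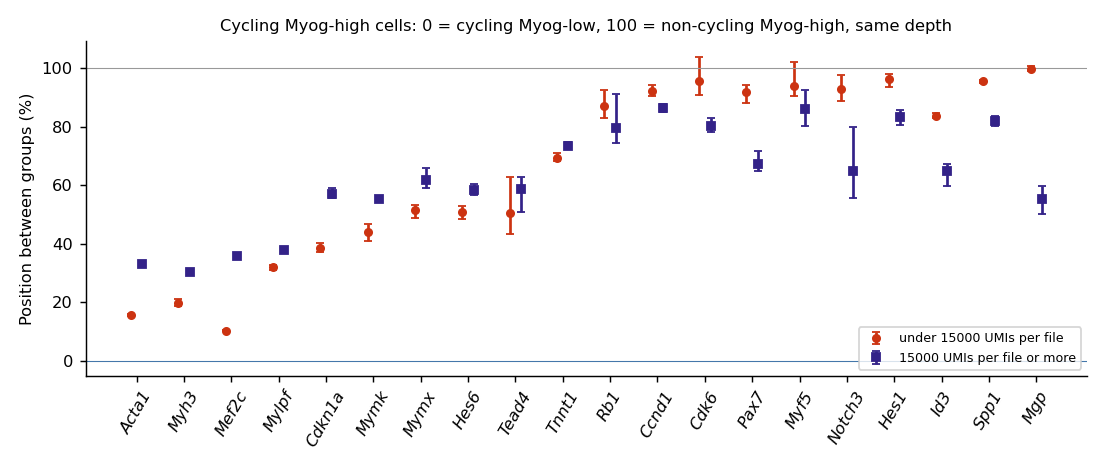
Position (%) of cycling Myog-high cells between cycling Myog-low (0) and non-cycling Myog-high cells (100) of like depth for 20 genes, in cells under 15000 UMIs per file (circles) and deeper cells (squares); bars span the 4 files. Pax7 lies at 91.9% in the shallower and 67.4% in the deeper cells, and Acta1 at 15.8% and 33.2%.

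Markers of other cell types were low or at 0 in the 198 cells, beside the muscle transcripts given above. Their part in the results was not tested. Of 11 fibroblast markers, Lum, Cd34, Dpt and Mfap5 were at 0, and the summed level was 99.2 to 112 CPM over the files, mostly Col3a1 at 76.3 CPM, against 259 to 266 CPM in cycling Myog-low cells. Endothelial markers summed to 3.01 to 6.90 CPM, immune markers to 1.08 to 4.43 CPM and glial markers to 1.08 to 2.96 CPM. Pericyte and smooth muscle markers summed to 21.5 to 33.6 CPM, led by Notch3, which stem cells also express, and Pdgfrb was at 0 in 3 files. Fat cell markers summed to 34.5 to 47.6 CPM, nearly all Lpl, with Adipoq and Cfd at 0.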

How the data were processed

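Libraries of sorted MyoD-tdTomato-high cells were made with the 10x Genomics 3-prime kit from about 10000 cells, per the labels. The authors deposited whole-number UMI counts for each gene and cell barcode. The file headers name Cell Ranger 7.1.0, and the submitters' processing notes name Cell Ranger 3.1.0 and the builds mm10 and GRCm39, with no role or order. Whether introns were counted is not given in the sources used here.

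The cells and gene lists were chosen with earlier results of these data known. Because all files hold the same cells, counts were summed per group and file, turned into CPM and averaged over the 4 files. Ratios used a pseudocount of 1 CPM and exact conditional binomial intervals, levels Poisson intervals and shares Clopper-Pearson intervals, all at 95%. Phases and doublet scores (Scrublet method, expected rate 5%) came from scanpy 1.11.5. The doublet caller's own threshold marked 0 of 5481 cells, so it did not work, and no cell was removed. The code was tested on simulated data. Genes eligible for naming had the 10 highest or 10 lowest ratios per comparison (5 and 5 for Myog-intermediate cells) with at least 30 CPM in the higher group, belonged to a list with at least 10 CPM in any group, or were the 10 farthest above or below both groups. List genes under that level are named only as other-cell markers. Alternatives are given in the closing section.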

Additional observations from a re-analysis of the deposited data

Results flagged for a closer look

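In 3 of 66 values examined, 1 of the 4 files stood apart from the others, where chance alone sets apart about 5% of such groups. Rad51ap1 was at 137 CPM in replicate 2 of the cycling Myog-high cells and at 130 to 131 CPM in the others. Cdkn1c was at 75.3 CPM in replicate 4 and at 87.7 to 90.2 CPM in the others. The S phase share was 9.52% in replicate 1 and 6.35% in each of the others.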

How the results depend on the processing

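No paired analysis was possible because the 4 files hold the same cells and form 1 group. The edgeR and DESeq2 fits and the replicate block, planned for files of different cells, were not run for the same reason. The S phase share was 17.5% by summed lists, and the share with a Cdkn1a UMI was 89.3% at 3000 UMIs. Leaving out 1 replicate gave 6.91 to 8.07% and 95.5 to 96.7%. The number of genes tested changes with the setting, so counts other than the leave-out ranges are given out of the genes tested. Against Myog-low cells, 459 of 9930 genes were higher at the main setting. With no count minimum 713 of 32285 were higher, and with a minimum of 200 UMIs 283 of 6297. When 1 replicate was left out, 455 to 471 were higher. Lower genes numbered 1077 of 9930 at the main setting, 550 of 10135 in deeper cells and 372 of 9930 with a pseudocount of 10. With the minimum of 200 they numbered 501 of 6297, and when 1 replicate was left out 1079 to 1102. Against non-cycling cells, 761 of 10246 were higher at the main setting and 369 of 10246 with the pseudocount of 10. With the minimum of 200, 340 of 6920 were higher, and 392 of 7669 at Myog of 1500 to 3000 CPM. Without 1 replicate, 762 to 781 were higher. Lower genes numbered 505 of 10246 at the main setting, 332 of 11181 in cells of any depth and 246 of 9203 in deeper cells. They numbered 209 of 10246 with the pseudocount, 302 of 6920 with the minimum and 329 of 7669 at that Myog level. Without 1 replicate they numbered 488 to 510. Against Myog-intermediate cells, 147 of 7697 were higher at the main setting, 340 of 32285 with no minimum and 73 of 3491 with 200. Without 1 replicate, 145 to 164 were higher. Lower genes numbered 199 of 7697 at the main setting, 66 of 9833 at any depth and 26 of 8721 in deeper cells. They numbered 130 of 6755 with Mki67 and Top2a at 300 CPM and 59 of 7697 with the pseudocount. They were 580 of 32285 with no minimum, 43 of 3491 with 200 and 116 of 6585 in G2/M cells. Without 1 replicate they numbered 192 to 219. The G2/M and Myog-range alternatives were chosen after seeing the data. Among named genes past 2-fold lower, in deeper cells the ratio to Myog-low cells turned positive for Egr1 (0.41), Kif26b (0.77), Pold4 (0.19) and Prkg1 (0.80, and 0.27 at any depth), and the ratio to non-cycling cells for Frmd4a (0.054). Lhfp (0.18), under 2-fold lower than non-cycling cells at first, also turned positive there. Gpx3, likewise under 2-fold lower at first, was near the non-cycling cells there, at 213.6 against 210.3 CPM. The cause was not tested. Genes with few UMIs in the 198 cells have wide intervals, and no value measures variation between cultures.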

Other observations

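Beyond the genes fixed in lists, the highest ratios to cycling Myog-low cells included the transcription factor Casz1 (108 against 2.21 CPM), the actin filament nucleator Lmod2 (67.1 against 1.33 CPM), the potassium channel Kcnk13 (63.3 against 1.24 CPM) and the phosphatase Inpp4b (189 against 7.72 CPM). The lowest included the water channel Aqp5 (1.39 against 48.9 CPM), the secreted factors Angpt1 (1.88 against 50.1 CPM) and Pgf (3.4 against 52.9 CPM), and Csf1 (19.8 against 214 CPM). The imprinted noncoding RNA Meg3 was at 74.8 CPM in the cycling Myog-high cells, against 15.6 CPM in Myog-low, 15.3 in Myog-intermediate and 216 CPM in non-cycling Myog-high cells. Its neighbour Rian was at 15.9 CPM, against 3.72, 3.6 and 58.6 CPM. Among cells that failed the Malat1 minimum, 34 of 193 cycling cells (17.6%) were Myog-high (12.5 to 23.7%).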
